A study of Rattus norvegicus with 34 samples.

Results

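This account is about ageing from young adulthood to late middle age in the liver of F344 rats, an inbred strain much used in ageing research. It compares the livers of 4 rats aged 18 months with those of 4 rats aged 6 months, which are 8 of the 34 arrays of the study. The members were chosen from the source label of each array, which gives strain, age and tissue. The study measured gene expression in the livers of ageing male rats on Affymetrix Rat 230 2.0 arrays, with an array for each animal. All F344 animals were untreated males, kept at their breeder on a 12-hour light cycle until 1 week before necropsy, and further groups of 4 F344 rats were 11 and 24 months old. The 16 F344 arrays entered one fit, so that the ages shared an estimate of the spread. The other rats of the study, of a different strain and partly dosed, are not used here. RNA came from whole liver, so fewer cells of a type and less RNA per cell cannot be told apart.

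Liver tissue is mostly hepatocytes, which make plasma proteins and metabolise foreign compounds. Between them sit Kupffer cells, the resident macrophages of the liver, with sinusoidal endothelial cells, stellate cells, bile duct cells and lymphocytes. Macrophages, dendritic cells and B cells take up proteins, cut them in their lysosomes and show the pieces to CD4 T cells on class II molecules of the major histocompatibility complex (MHC), named RT1-B and RT1-D in the rat. The invariant chain Cd74 guides class II molecules to the lysosome, cathepsin S (Ctss) trims that chain, and RT1-DM exchanges the trimmed piece for a peptide. Interferons induce the class I and class II pathways and a set of antiviral genes, and cytokines of the interleukin 6 family, through Stat3, make hepatocytes release acute-phase proteins such as the lipopolysaccharide-binding protein Lbp.

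A gene passed the test where its adjusted p lay under 0.05, with limma's moderated test and Benjamini-Hochberg adjustment over all 9206 genes tested. Signals are linear probe set intensities, signals under 32 were set to that floor before log2 was taken, and a positive log2 difference means a higher level at 18 months. At 18 months 84 genes were higher (0.912% of those tested) and 15 lower (0.163%), together 99 (1.08%). Of these, 45 differed at least 2-fold, 37 of them higher and 8 lower. The median size of the difference was 1.94-fold among the genes higher at 18 months and 2.02-fold among the lower ones. Over all genes tested the median log2 difference was -0.00, and 4493 genes (48.8%) had a positive sign. In each of the 99 genes the arrays of 6 and 18 months did not overlap, a separation seen in 390 (4.24%) of the genes tested in the higher and 226 (2.45%) in the lower direction. The count turned on single arrays: it was 22 without 18-month replicate 3, 51 without 18-month replicate 2 and 206 without 18-month replicate 4, and 38, 28 and 47 without 6-month replicates 1, 2 and 3.

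The genes higher at 18 months included members of class II antigen presentation, macrophage genes, small calcium-binding proteins, annexins and cytoskeletal genes. The lower genes included enzymes of foreign compound and amino acid metabolism. Of the 99 genes 53 were in none of the gene lists examined, 44 of them higher and 9 lower. The promoters of 4 members are shown here because genes of antigen presentation and of the interferon response were among the higher ones, and their start regions can be read beside the values that follow. They are RefSeq sequences of build GRCr8, from 250 bases before to 50 bases after the gene's start, written 5′ to 3′ on the gene's strand. In RT1-Da and RT1-Bb, the class II chains with the largest differences that passed, capitals mark CCAAT on either strand, the letters of the Y box known from class II promoters. In Irf7, a transcription factor of the interferon response, and Psmb10, a subunit of the immunoproteasome, capitals mark GAAA, any 2 bases and GAAA on either strand, the core of interferon-stimulated response elements.
RT1-Da, chr20:4515165-4515464, plus strand: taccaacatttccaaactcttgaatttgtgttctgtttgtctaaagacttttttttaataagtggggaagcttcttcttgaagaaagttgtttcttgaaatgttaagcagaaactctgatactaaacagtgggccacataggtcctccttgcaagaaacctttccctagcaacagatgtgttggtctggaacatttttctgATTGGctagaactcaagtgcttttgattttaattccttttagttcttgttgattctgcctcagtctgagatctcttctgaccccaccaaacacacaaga
RT1-Bb, chr20:4604069-4604368, minus strand: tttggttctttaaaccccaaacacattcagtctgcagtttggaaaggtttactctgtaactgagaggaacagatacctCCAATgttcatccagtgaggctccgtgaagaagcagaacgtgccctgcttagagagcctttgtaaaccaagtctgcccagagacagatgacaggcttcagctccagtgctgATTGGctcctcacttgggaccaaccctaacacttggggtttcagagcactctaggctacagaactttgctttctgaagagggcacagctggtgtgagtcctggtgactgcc
Irf7, chr1:205799974-205800273, minus strand: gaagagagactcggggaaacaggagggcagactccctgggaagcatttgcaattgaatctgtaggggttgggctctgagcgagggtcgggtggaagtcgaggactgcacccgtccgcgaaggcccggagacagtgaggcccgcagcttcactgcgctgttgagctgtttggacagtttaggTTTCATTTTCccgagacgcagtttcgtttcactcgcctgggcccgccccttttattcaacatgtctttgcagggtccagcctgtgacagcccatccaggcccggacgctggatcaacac
Psmb10, chr19:50743243-50743542, minus strand: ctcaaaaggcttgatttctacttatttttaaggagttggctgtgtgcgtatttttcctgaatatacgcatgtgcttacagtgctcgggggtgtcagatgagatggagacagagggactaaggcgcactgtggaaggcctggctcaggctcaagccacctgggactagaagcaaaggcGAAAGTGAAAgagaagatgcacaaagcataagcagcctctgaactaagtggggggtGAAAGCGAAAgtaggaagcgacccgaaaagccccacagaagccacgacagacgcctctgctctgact
In RT1-Da CCAAT lay on the opposite strand at -49 to -45 from the start. RT1-Bb had CCAAT at -172 to -168 and on the opposite strand at -61 to -57. Psmb10 had the interferon letters at -73 to -64 and at -17 to -8, and Irf7 had them on the opposite strand at -69 to -60. These letter strings were chosen after several had been tried and their matches seen. CCAAT stood in 12549 of the 33469 promoters of the table (37.5%), in 3061 of 7752 tested genes that matched it (39.5%), in 20 of the 68 matched higher genes (29.4%) and in 7 of 13 matched lower genes (53.8%), so that its share was lower among the higher genes than among all those tested. The interferon letters stood in 1312 promoters (3.92%), in 253 of 7752 tested genes (3.26%), in 8 of the 68 matched higher genes and in 0 of 13 matched lower genes. The 8 were Casp1, Ctss, Ifitm3, Irf7, Lgals3bp, Psmb10, Slfn5 and Tap1. A match describes the sequence and shows no binding.

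**Figure D1:**
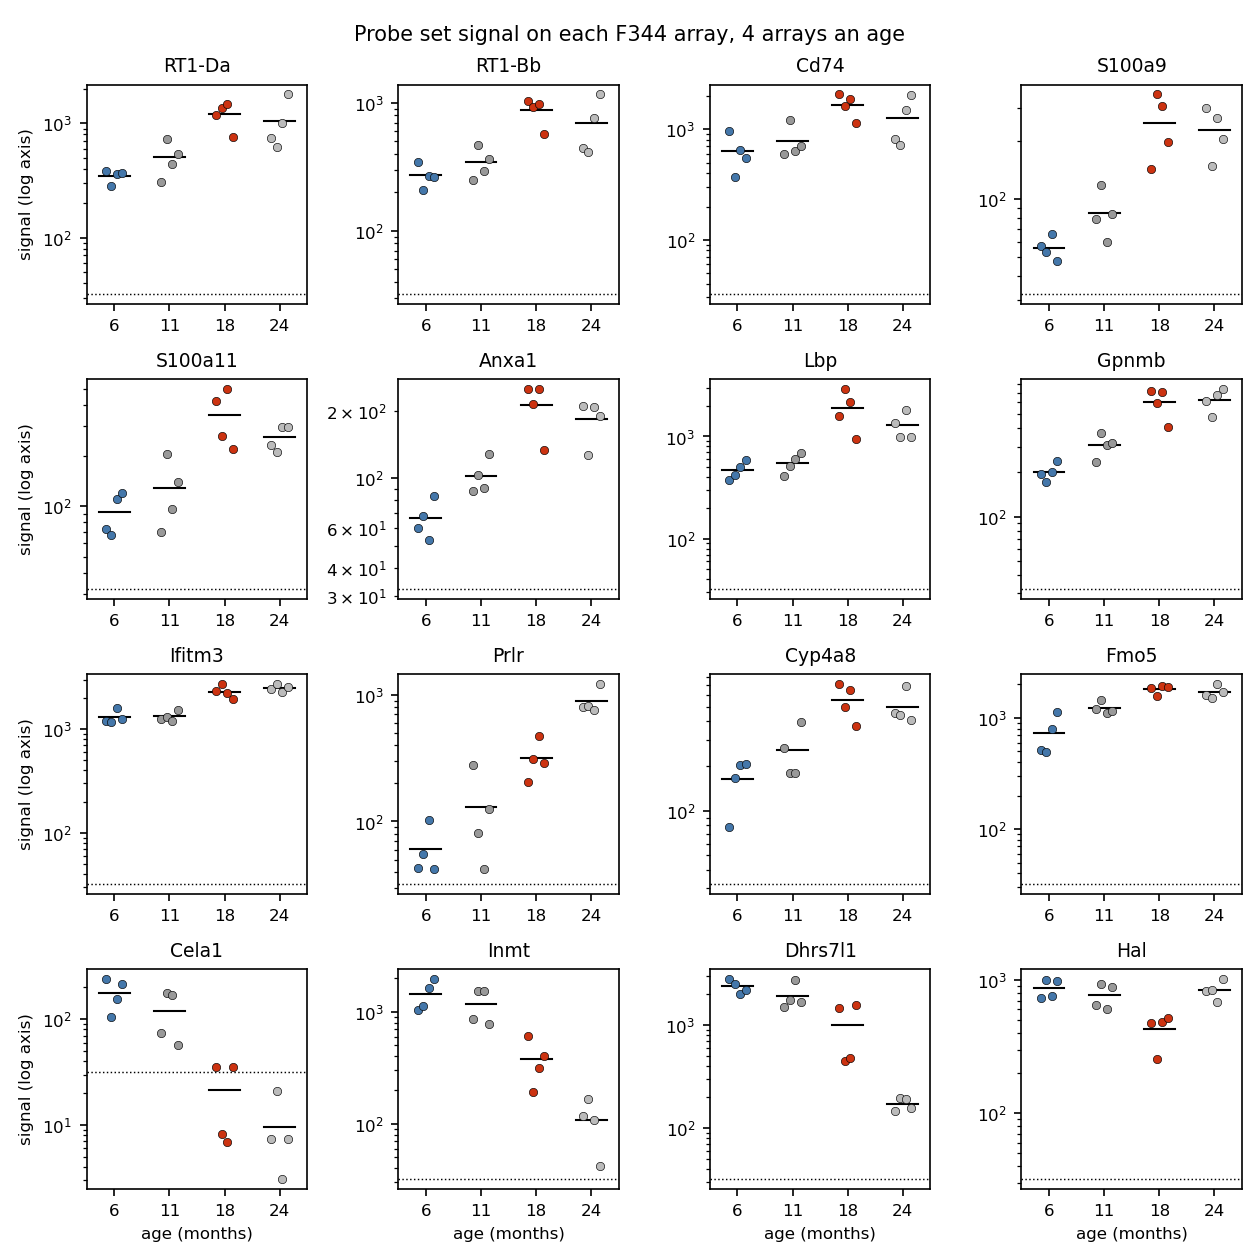
Linear probe set signal (log axis) on each F344 array by age in months, 4 arrays an age, for 16 genes that passed at 18 against 6 months. Points are arrays, bars are means and the dotted line is the floor of 32. The red points of 18 months lie above the blue points of 6 months in the first 12 panels and below them in the last 4, and Hal alone among those 4 lay near its 6-month mean again at 24 months (841 against 867).

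Of 10 tested genes of class II antigen presentation 6 were higher at 18 months and none lower, against 0.912% higher over all tested genes. All 10 had a positive sign with a median log2 difference of 1.31. RT1-Da, the class II alpha chain of the D molecule, had signals of 385, 282, 358 and 365 at 6 months and 1194, 1363, 1466 and 763 at 18 months. The lowest 18-month array, replicate 4, lay above every 6-month array, and the means of 347 ± 45 and 1196 ± 310.2 (SD, n = 4) differed 3.37-fold (log2 difference 1.75, SE 0.30, adjusted p = 0.011 with limma). RT1-Bb, the beta chain of the B molecule, had 345, 209, 270.3 and 261 at 6 months and 1029.7, 919, 975 and 566 at 18 months. It was 3.18-fold higher (log2 difference 1.67, SE 0.30, adjusted p = 0.0128), with replicate 4 again the lowest of its group and the groups apart. The invariant chain Cd74 had 958, 372, 647 and 554 at 6 months and 2070.2, 1619.7, 1866 and 1154 at 18 months. Its range at 6 months was wide, from replicate 2 to replicate 1, and 18-month replicate 4 stood closest to it (2.74-fold higher, log2 difference 1.46, SE 0.34, adjusted p = 0.0495).

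The 2 subunits of the peptide exchanger also passed. RT1-DMa had signals of 27.8, 41.6, 41.3 and 39.9 at 6 months, the first of them under the floor, and 88.1, 119, 94.7 and 56 at 18 months (at least 2.24-fold higher, log2 difference 1.17, SE 0.20, adjusted p = 0.011). RT1-DMb was less far apart, with means of 126 ± 21.5 and 222 ± 27.9 (SD, n = 4; 1.78-fold higher, log2 difference 0.83, SE 0.16, adjusted p = 0.0178). The protease Ctss had means of 753 ± 116 and 1346 ± 152 (SD, n = 4; 1.79-fold higher, log2 difference 0.84, SE 0.16, adjusted p = 0.0175). The chains RT1-Ba and RT1-Db1 had differences as large that did not pass. RT1-Ba had 194, 188, 191 and 228 at 6 and 936, 819, 1027 and 294 at 18 months, so that 18-month replicate 4 lay close to the 6-month arrays (log2 difference 1.80, SE 0.48, adjusted p = 0.0894). For RT1-Db1, whose probe set is of a type that can match several transcripts, the log2 difference was 1.54 (SE 0.39, adjusted p = 0.0703). Ifi30, a lysosomal thiol reductase that prepares antigens, had 0.46 (adjusted p = 0.105), and Ciita, the master regulator of class II transcription, lay near the floor at 33.4 ± 5.46 and 39.9 ± 5.09 (SD, n = 4) with an adjusted p of 0.661. With 18-month replicate 3 left out 0 members passed, with 6-month replicates 2 and 3 left out in turn 1 and 3 members did, and 3 did when the 5 F344 arrays with the strongest sign of RNA breakdown, a GAPDH ratio above 2.5, were left out.

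For MHC class I and peptide loading, 2 of 18 members passed, both higher, against 0.912% higher over all tested genes. There were 18 positive signs and a median log2 difference of 0.21. Psmb10 had signals of 225, 200.3, 211 and 236 at 6 months and 315, 358, 370.1 and 325 at 18 months, each 18-month array above each 6-month array (1.57-fold higher, log2 difference 0.65, SE 0.13, adjusted p = 0.0218 with limma). The peptide transporter subunit Tap1 had 58.7, 45.5, 59 and 53.4 at 6 and 79.4, 84.8, 79.9 and 64.7 at 18 months, where 18-month replicate 4 lay closest to the 6-month arrays (1.43-fold higher, log2 difference 0.51, SE 0.12, adjusted p = 0.0462). No member passed without 18-month replicate 2 or 3, or without 6-month replicate 1, 2 or 3, and 1 passed under 9 further alternatives.

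Of 26 tested markers of macrophages and Kupffer cells 6 were higher and none lower, against 0.912% higher over all tested genes. The other 20 did not pass. In all 25 had a positive sign and the median log2 difference was 0.60. Gpnmb, a glycoprotein of macrophage lysosomes, had signals of 195, 171, 200.0 and 238 at 6 months and 722, 598, 704 and 406 at 18 months. All 18-month arrays lay well above the 6-month ones, replicate 4 least so, and the difference was 2.97-fold (log2 difference 1.57, SE 0.19, adjusted p = 0.00194 with limma). Cd53, a tetraspanin of leukocytes, had 89.5, 93.5, 107 and 140.1 at 6 and 199.7, 237, 309.9 and 185 at 18 months (2.16-fold higher, log2 difference 1.11, SE 0.22, adjusted p = 0.0218). Fcer1g, the signalling chain of Fc receptors, had 346, 313, 401 and 375 at 6 and 663, 594, 813 and 711 at 18 months, a narrow spread at both ages (1.93-fold higher, log2 difference 0.95, SE 0.14, adjusted p = 0.0041). The lysosomal marker Cd68 rose from 179 ± 29.5 to 340.2 ± 68.7 (SD, n = 4; adjusted p = 0.0462), and the colony-stimulating factor receptor Csf1r, on which macrophages depend, from 134 ± 31.5 to 213 ± 18.1 (adjusted p = 0.0445). Lysozyme Lyz2 differed least of the 6, from 1166 ± 115 to 1756 ± 121 (SD, n = 4; 1.51-fold, adjusted p = 0.0365). Only 2 members passed when 18-month replicate 2 or 3, or 6-month replicate 1, 2 or 3, was left out. With a floor of 16, median scaling or a fit of the 2 ages alone 3 passed, and with the arrays of GAPDH ratio above 2.5 left out 1 did.

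Further genes of phagocytes and lysosomes that passed lay in other lists or in none. Itgb2, the common chain of the leukocyte integrins, was 2.09-fold higher at means of 101 ± 27.3 and 208 ± 40.2 (SD, n = 4; adjusted p = 0.0223 with limma). Cd63, a tetraspanin of late endosomes, had 173, 184, 225 and 282 at 6 months and 651, 1084, 541 and 387 at 18 months, with 18-month replicate 2 far above the rest (2.92-fold higher, log2 difference 1.55, SE 0.29, adjusted p = 0.0172). The asparaginyl protease Lgmn was 1.65-fold higher (adjusted p = 0.0184). The surface receptors Sirpa, Cd300a and Vsir, which damp immune cells, were 1.68-fold, at least 1.74-fold and 1.72-fold higher, with adjusted p-values of 0.0495, 0.0495 and 0.0172. Gas6, a bridge between dying cells and the receptors that clear them, was 1.61-fold higher (adjusted p = 0.0445), and 2 further probe sets of it had log2 differences of 0.08 and 0.38 that did not pass. Without 18-month replicate 3 none of these 7 genes passed.

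Markers of lymphocytes and dendritic cells had no calls. For T and natural killer cells 0 of 14 members passed (median log2 difference 0.15), for B and plasma cells 0 of 5 (0.14) and for dendritic cells 0 of 3 (0.36). Among all tested genes 1.08% passed, and lists this short without a call are near that share. Jchain, a joining chain of secreted antibodies, had the largest of these differences, 56.6 ± 12.1 against 148 ± 76.3 (SD, n = 4; log2 difference 1.25, adjusted p = 0.135 with limma). Of 6 neutrophil markers on the array 2 could be tested and 1 passed, S100a9, which is described with the S100 proteins. The summed signal of the 6 was 96.7 to 114 on the 6-month and 222 to 488 on the 18-month arrays. S100a9 alone made up 55.9 and 250.2 of the mean sums of 104 and 356. The summed signal of 28 macrophage markers on the array was 8248 to 9495 on the 6-month arrays and 11345 to 14393 on the 18-month arrays, with Ms4a7 and Ncf1 never above the floor. The sum of 24 T and natural killer cell markers was 614 to 788 and 730 to 978, and Cd3d, Cd3e, Cd5 and Cd6 never rose above the floor on these arrays. Cd3g was under the floor on all 6-month arrays and at 43.3, 36.4, 56.5 and 51.8 at 18 months. Lck had means of 50.4 ± 6.04 and 75.9 ± 16.1 (SD, n = 4), with the groups apart. Neither passed (adjusted p = 0.158 and 0.101 with limma). Of the 14 tested members 12 had a positive and 2 a negative sign. That of 18 hepatocyte markers overlapped, at 94282 to 96921 and 92493 to 97934. Albumin (Alb) was 8164 ± 271 and 8371 ± 230.3 (SD, n = 4; adjusted p = 0.927), so the tissue label holds at both ages.

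**Figure D2:**
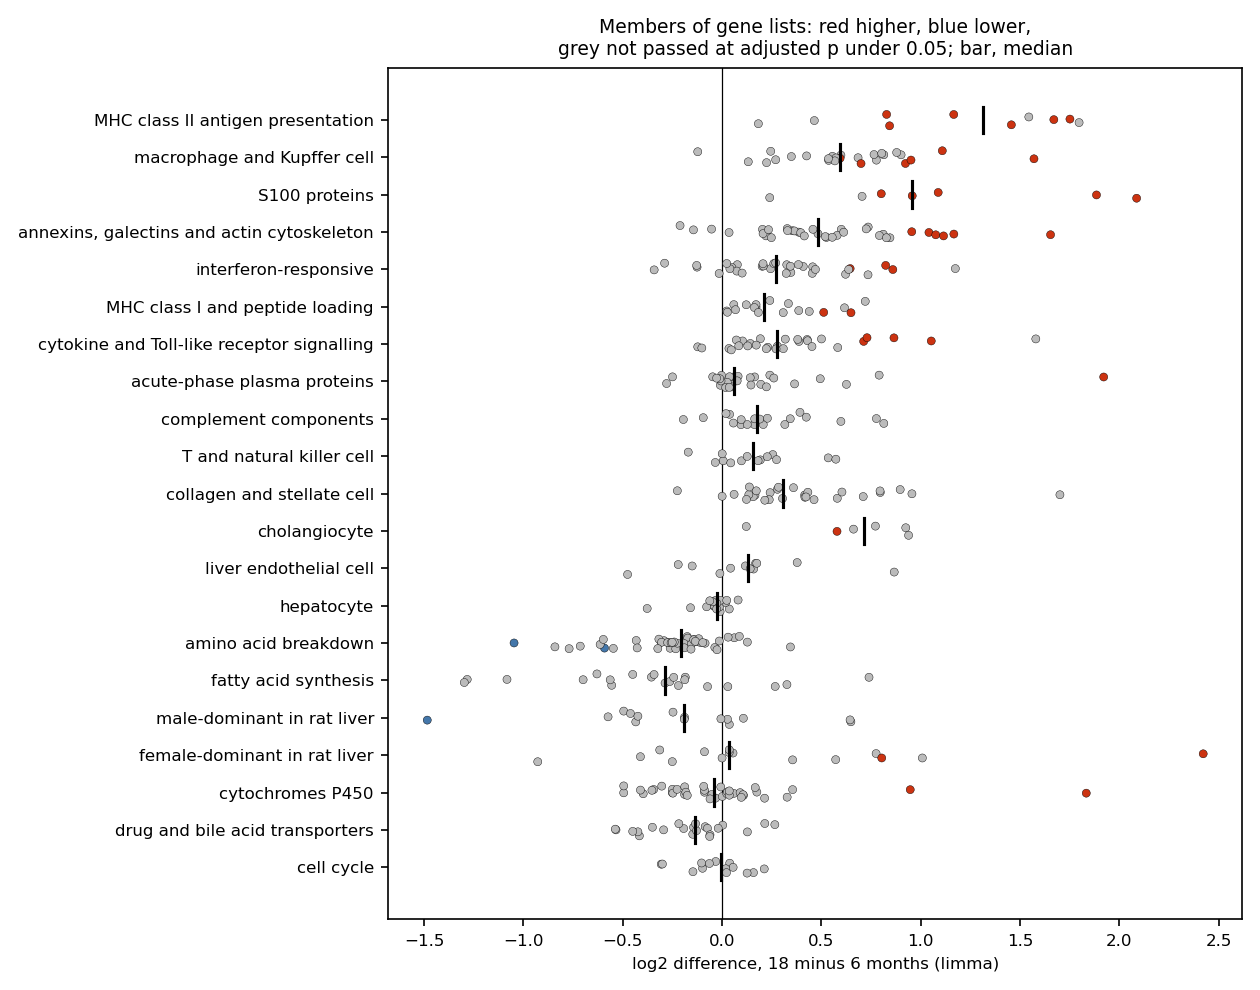
Log2 difference at 18 minus 6 months (limma) of each tested member in 21 gene lists. Points are genes, red where higher and blue where lower at an adjusted p under 0.05, grey where not passed, and bars are list medians. Medians reach 1.31 for class II antigen presentation and 0.96 for S100 proteins, against -0.03 for hepatocyte markers and -0.00 over all genes tested.

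S100 proteins, small calcium-binding proteins of myeloid and epithelial cells, were higher in 5 of 7 members tested (median log2 difference 0.96). Over all tested genes 0.912% were higher. S100a9, a chain of calprotectin in neutrophils and monocytes, had 57, 53.1, 65.7 and 47.7 at 6 months and 144, 351, 306 and 199 at 18 months. Its 18-month arrays spread more than 2-fold among themselves, with replicate 2 highest, yet the lowest was above every 6-month array (4.25-fold higher, log2 difference 2.09, SE 0.27, adjusted p = 0.00194 with limma). S100a11 had 72.7, 67.5, 109.8 and 119.6 at 6 and 423, 261, 496 and 219 at 18 months, with the groups apart and 18-month replicate 3 highest (3.69-fold higher, log2 difference 1.88, SE 0.31, adjusted p = 0.00751). S100a10, the partner of Anxa2, was 1.94-fold higher and S100a6 at least 1.74-fold (adjusted p = 0.019 and 0.0221). S100a4 lay under the floor on all 6-month arrays and at 65.1, 46, 59.5 and 120.0 at 18 months, where replicate 4 was highest (at least 2.13-fold higher, log2 difference 1.09, SE 0.22, adjusted p = 0.0218). S100a8, the other calprotectin chain, was under the floor on all 6-month arrays and at 35.9, 75.7, 68.8 and 39.6 at 18 months, and its difference did not pass (adjusted p = 0.147). Of the other neutrophil markers on the array, Cxcr1, Csf3r and Mmp8 were never above the floor at 6 or 18 months. Leaving out 18-month replicate 3 or 6-month replicate 2 or 3 reduced the 5 calls to 2, leaving out 6-month replicate 1 or 4, or fitting the 2 ages alone, to 3, leaving out the arrays of GAPDH ratio above 2.5 to 2, and a floor 4 times as high to 1.

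Annexins, galectins and genes of the actin cytoskeleton followed, with 6 of 37 members higher, 34 positive and a median log2 difference of 0.48. The share higher over all tested genes was 0.912%. Anxa1, which binds phospholipids in the presence of calcium and limits inflammation, had 60.3, 68.1, 53.3 and 83.8 at 6 months and 249.7, 215, 249.6 and 134 at 18 months, replicate 4 lowest but above all 6-month arrays (3.15-fold higher, log2 difference 1.65, SE 0.21, adjusted p = 0.00194 with limma). The intermediate filament vimentin (Vim), of mesenchymal cells and leukocytes, had means of 155 ± 30.9 and 349.6 ± 70.1 (SD, n = 4), and the groups did not overlap (2.24-fold higher, log2 difference 1.17, SE 0.17, adjusted p = 0.0041). Anxa5 and Anxa2 were 2.11-fold and 2.06-fold higher (adjusted p = 0.0175 and 0.0399). Galectin 3 (Lgals3), which macrophages secrete, went from 310.0 ± 66.5 to 677 ± 176 (SD, n = 4; 2.17-fold, adjusted p = 0.019), and its binding protein Lgals3bp from 119 ± 18.8 to 231 ± 38.8 (1.94-fold, adjusted p = 0.0116). Outside the list, Crip1, Enc1, Sptan1 and Myadm, which have parts in cell shape or the cell membrane, were 2.46-fold, 2.71-fold, 1.7-fold and 2.15-fold higher (adjusted p = 0.0041, 0.0299, 0.019 and 0.0218). Leaving out 18-month replicate 3 reduced the list's 6 calls to 2, and leaving out 6-month replicate 1, 2 or 3, or the arrays of GAPDH ratio above 2.5, or a floor 4 times as high, to 3. Leaving out 18-month replicate 4 raised them to 10.

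Interferon-responsive genes had 3 of 33 members higher and none lower, against 0.912% higher over all tested genes. There were 28 positive signs and a median log2 difference of 0.27. Ifitm3, which blocks the entry of viruses into cells, had 1193, 1162, 1581 and 1257 at 6 months and 2301, 2693, 2240.1 and 1946 at 18 months, and the highest 6-month array, replicate 3, stayed below all of 18 months (1.77-fold higher, log2 difference 0.82, SE 0.13, adjusted p = 0.00424 with limma). Irf7 had 191, 174, 195 and 151 at 6 and 255, 320.1, 280.3 and 254 at 18 months, also apart (1.56-fold higher, log2 difference 0.64, SE 0.12, adjusted p = 0.0172). Oasl, an antiviral protein of the oligoadenylate synthetase family, had 74.7, 96.4, 109.6 and 92.6 at 6 and 162, 217, 135 and 167 at 18 months (1.81-fold higher, log2 difference 0.86, SE 0.17, adjusted p = 0.0218). Ubd, a ubiquitin-like tag induced by interferon gamma and tumour necrosis factor and in no list here, had 759, 728, 965 and 1089.6 at 6 and 2298, 3732, 2534 and 1526 at 18 months. Replicate 2 of 18 months was highest, replicate 4 lowest, and the groups did not overlap (2.75-fold higher, log2 difference 1.46, SE 0.24, adjusted p = 0.00711). Slfn5, of the interferon-induced Schlafen family, was 1.51-fold higher (adjusted p = 0.0421). In the list 1 gene passed with replicate 2 of either age left out, and 5 with 18-month replicate 4 left out.

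Cytokine and Toll-like receptor signalling had 4 of 29 members higher and none lower (27 positive, median log2 difference 0.28). Among all tested genes 0.912% were higher. Stat3 had 499, 185, 286 and 359 at 6 months and 667, 596, 677 and 654 at 18 months, a wide spread at the younger age and a narrow one at the older (2.07-fold higher, log2 difference 1.05, SE 0.24, adjusted p = 0.0433 with limma). The inhibitor of NF-kappa B, Nfkbia, had 256, 175, 215 and 196 at 6 and 325, 399, 358 and 292 at 18 months, and 6-month replicate 1 lay nearest to the older group (1.64-fold higher, log2 difference 0.71, SE 0.13, adjusted p = 0.0172). Casp1, which cuts interleukin 1 beta to its active form, was 1.66-fold higher (adjusted p = 0.0211). Il1b itself was faint, at 44.8, 29.9, 44.6 and 50.7 at 6 and 61, 99.9, 96.5 and 60.7 at 18 months, and at least 1.82-fold higher (log2 difference 0.87, SE 0.20, adjusted p = 0.0495). Related genes outside the list were the adaptor Tifa (at least 2.19-fold higher, adjusted p = 0.0041), the chemokine and scavenger receptor Cxcl16 (2.62-fold, adjusted p = 0.0041), the survival gene Bcl2a1 (2.2-fold, adjusted p = 0.015) and the cytokine receptor Tnfrsf12a. Tnfrsf12a was under the floor on all 6-month arrays and at 44.9, 53.5, 55.2 and 47.5 at 18 months (at least 1.57-fold higher, log2 difference 0.65, SE 0.10, adjusted p = 0.00412). No member of the list passed in a fit of the 2 ages alone, without 18-month replicate 2 or 3, or without 6-month replicate 2. Without 6-month replicate 3 or 4 a single member passed, and 2 did without 18-month replicate 1, with either other floor, with dim genes kept, under median scaling, or without the arrays of GAPDH ratio above 2.5.

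Among acute-phase plasma proteins 1 of 29 members passed, where 1.08% of all tested genes did, and the median log2 difference was 0.06. That member, Lbp, had 374, 419.5, 498 and 594 at 6 months and 1592, 2888, 2195 and 945 at 18 months. Replicate 2 of 18 months was the highest and replicate 4 the lowest, still above the highest 6-month array (3.79-fold higher, log2 difference 1.92, SE 0.29, adjusted p = 0.0041 with limma). Complement components had 0 of 20 members passing with 18 positive signs and a median of 0.18, the smallest adjusted p being 0.0847 for C1s.

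**Figure D3:**
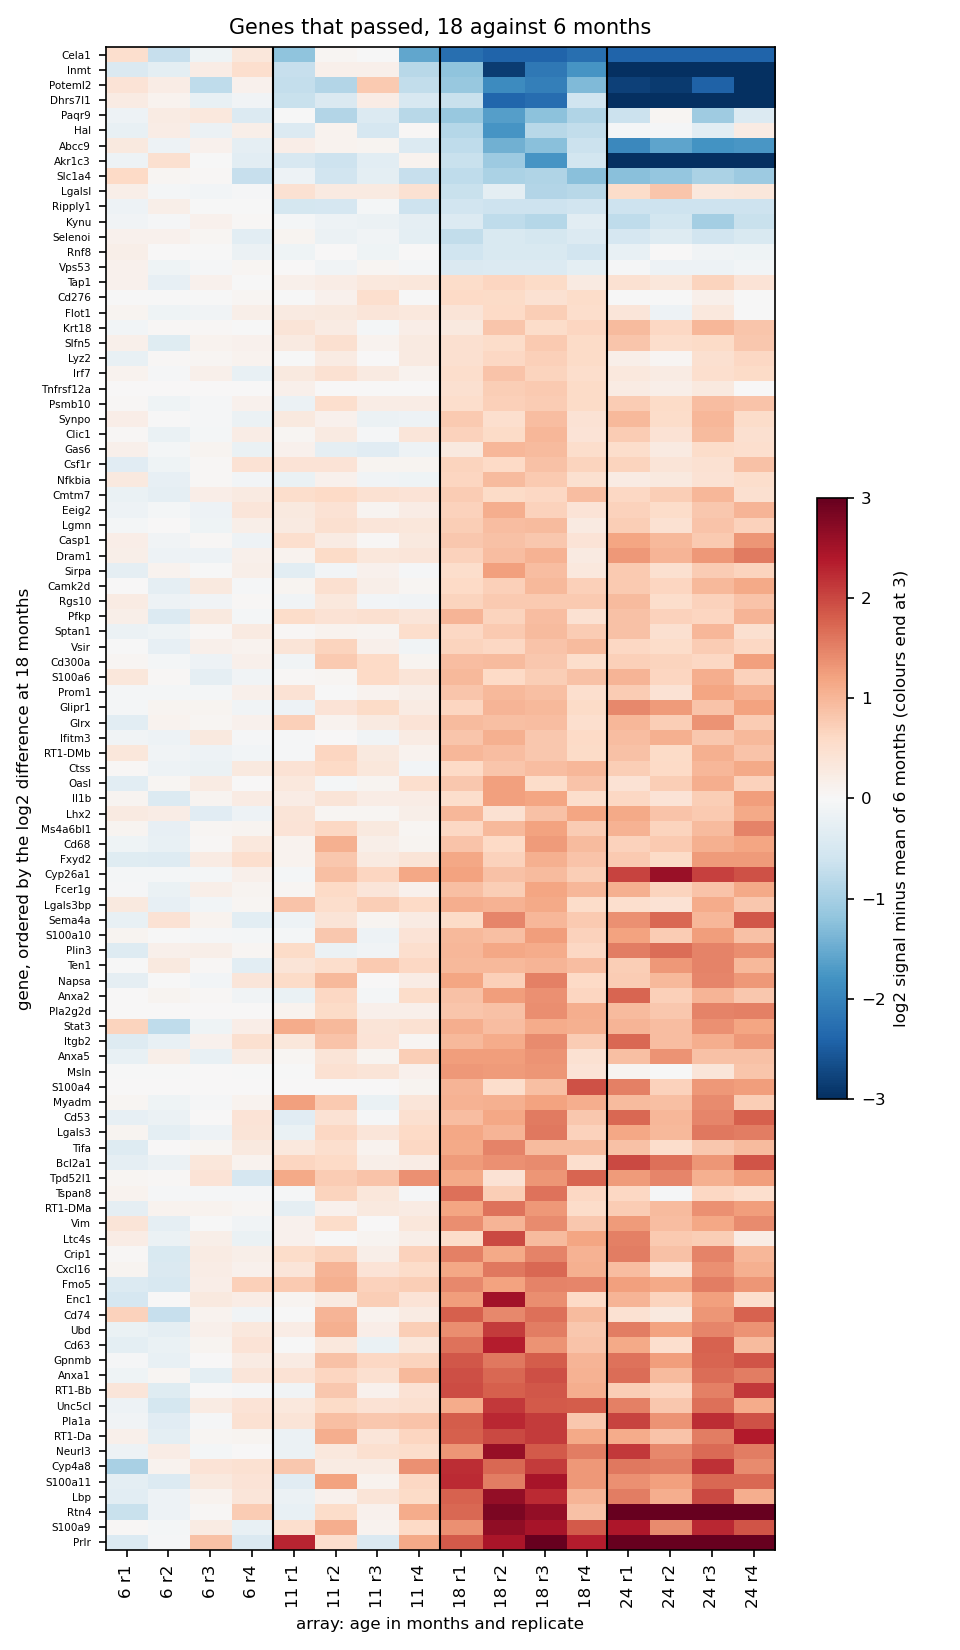
Log2 signal of the 99 genes that passed, minus each gene's 6-month mean, on the 16 F344 arrays by age in months and replicate, with genes in order of their difference at 18 months. Red is higher and blue lower, and colours end at 3. Replicate 4 of 18 months (18 r4) is paler than its group, with a median of 0.75 over the 84 higher genes against 0.97 to 1.08 on the other 3 arrays.

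The largest log2 difference among the genes that passed, on floored signals, was that of Prlr, the prolactin receptor, which in rat liver is far higher in females than in males. Its signals were 42.9, 55.4, 104 and 42.1 at 6 months and 203, 309, 469.7 and 289.8 at 18 months. Replicate 3 was highest at both ages and the groups did not overlap (log2 difference 2.42, SE 0.44, adjusted p = 0.0143 with limma), and 3 probe sets of the gene gave differences of 2.42, 2.85 and 2.18. With a floor of 16 the log2 difference of Cela1 (-2.83) was larger in size than that of Prlr (2.42). The call of Prlr was lost when 18-month replicate 3 or 6-month replicate 1 or 2 was left out, and that of Prom1 also without 18-month replicate 2 or 6-month replicate 3. Prom1, the other member to pass among 15 genes of female-dominant expression, was close to the floor (30.2 ± 5.02 and 58.1 ± 7.64, SD, n = 4; at least 1.75-fold higher, adjusted p = 0.0175), and the list's median was 0.04. Cyp2c12, the main female-specific cytochrome P450, had 367, 336, 221 and 405 at 6 and 262, 145, 1013 and 143 at 18 months, with 18-month replicate 3 far above the other 3 and the groups overlapping (adjusted p = 0.924). Of 15 male-dominant genes 1 passed, lower (Dhrs7l1, described with the enzymes). Over all tested genes 0.912% were higher and 0.163% lower. The male-specific Cyp2c11 was 5855 ± 299 and 5193 ± 959.7 (SD, n = 4; adjusted p = 0.892), Cyp3a2 5021 ± 705 and 5153 ± 729 (adjusted p = 0.984), and the steroid dehydrogenase Hsd3b5 2584 ± 369.6 and 1998 ± 763 (adjusted p = 0.601). Replicate 3 of 18 months, which had the high Cyp2c12, also had the lowest Cyp2c11, Cyp3a2 and Hsd3b5 of its group, at 4376, 4062 and 966. At 24 months their means were 316, 272 and 43.3, and that of Cyp2c12 was 6437.

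Other large differences fell on genes outside every list. Rtn4, a reticulon that shapes the endoplasmic reticulum, had 62.3, 88.6, 101 and 168 at 6 months and 324, 694, 614 and 180.1 at 18 months, so that 18-month replicate 4 barely passed the highest 6-month array (4.03-fold higher, log2 difference 2.01, SE 0.38, adjusted p = 0.0172 with limma). A second probe set of Rtn4 had a log2 difference of 0.88 that did not pass. The ubiquitin ligase Neurl3 had 41.3, 53.3, 43.8 and 46.4 at 6 and 115, 281, 164 and 133 at 18 months, with 18-month replicate 2 highest (3.54-fold higher, log2 difference 1.83, SE 0.23, adjusted p = 0.00194). Pla1a, a phospholipase that acts on phosphatidylserine, had 37.8, 32.2, 39.7 and 55.2 at 6 and 143, 195, 172 and 70.7 at 18 months, with replicate 4 lowest (3.36-fold higher, log2 difference 1.75, SE 0.27, adjusted p = 0.00424). Unc5cl, a relative of the netrin receptors, had 103, 79.8, 137 and 153 at 6 and 246, 499, 407 and 403 at 18 months, where replicate 1 was the lowest of 18 months (3.29-fold higher, log2 difference 1.72, SE 0.23, adjusted p = 0.00216). The phospholipase Pla2g2d was under the floor at 6 months and at 57.1, 59.1, 84.1 and 68.5 at 18 months (at least 2.07-fold higher, adjusted p = 0.00626), and the leukotriene C4 synthase Ltc4s went from 110.3 ± 16.7 to 263 ± 119 (SD, n = 4; adjusted p = 0.0462). Ten1, of the complex that caps telomeres, had a narrow spread, 98.2, 120.1, 102 and 79 against 194, 193, 200.1 and 188 (1.96-fold higher, log2 difference 0.97, SE 0.16, adjusted p = 0.00629). Plin3, which coats lipid droplets, was 1.96-fold higher (adjusted p = 0.0172), and Synpo's call held for 1 of its 2 probe sets, the other having a log2 difference of -0.05. Without 18-month replicate 2 or 3, or 6-month replicate 1, the calls of Rtn4, Plin3 and Ltc4s were lost, while Neurl3, Pla1a, Unc5cl, Pla2g2d and Ten1 passed with each array left out in turn. None of the latter genes passed under every other alternative.

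Markers of bile ducts, stellate cells and preneoplastic foci had list medians above that of all genes. Of 6 cholangiocyte genes Krt18, a keratin that hepatocytes also express, passed (1156 ± 43.4 and 1741 ± 262, SD, n = 4; 1.49-fold higher, adjusted p = 0.0418 with limma), and the list's median log2 difference was 0.72. The summed signal of the cholangiocyte markers was 1905 to 2229 at 6 and 2943 to 3585 at 18 months, with Krt7 and Cftr never above the floor. Krt18 alone made up 1156 and 1741 of the mean sums of 2076 and 3279. Collagen and stellate cell genes had 28 of 29 positive signs and a median of 0.30, and none passed, where 1.08% of all tested genes did. Decorin (Dcn), a proteoglycan of the matrix, came nearest at 52.1, 60.8, 27.9 and 74.7 at 6 and 204, 216, 226 and 84.7 at 18 months, where 18-month replicate 4 was far below its group (log2 difference 1.70, SE 0.42, adjusted p = 0.0608). Among 9 markers of preneoplastic foci and liver tumours, Prom1, Anxa5 and the tetraspanin Tspan8 passed, where 0.912% of all tested genes were higher (at least 2.23-fold higher for Tspan8, adjusted p = 0.0218), with a median of 0.64. These 9 were the testable ones of 15 on the array, and the tumour marker Afp had the lowest log2 difference, -0.42. Prom1 and Anxa5 also count in the lists of female-dominant genes and of annexins. Msln, a surface protein of the mesothelium that covers organs, had 3.03, 20.8, 32.5 and 31.7 at 6 and 79.7, 77.4, 81 and 43 at 18 months (at least 2.12-fold higher, adjusted p = 0.0172). None of Krt18, Tspan8 and Msln passed without 18-month replicate 3 or 6-month replicate 1 or 2. The part of cell composition in these differences was not tested.

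Enzymes and transporters of foreign compounds, the subject of the study, had calls in both directions. Over 8 lists together, 6 of 188 genes passed, 3 higher and 3 lower, which is 3.19% where 1.08% of all tested genes passed. The lower calls were 1.60% of the 188, where 0.163% of all tested genes were lower, and the median log2 difference was -0.06. Cyp4a8, of the fatty acid hydroxylases, had 77.3, 165, 204 and 208 at 6 months and 711, 500.5, 655 and 374 at 18 months, with replicate 1 the lowest of the younger and the highest of the older group (3.56-fold higher, log2 difference 1.83, SE 0.32, adjusted p = 0.011 with limma). The flavin monooxygenase Fmo5 had 517, 493, 792 and 1128 at 6 and 1864, 1582, 1932 and 1895 at 18 months, a wide spread at 6 and a narrow one at 18 months (2.63-fold higher, log2 difference 1.39, SE 0.20, adjusted p = 0.0041). Cyp26a1, which breaks down retinoic acid, was above the floor on 1 array at 6 months and at 76.7, 61.5, 63.9 and 55.8 at 18 months (at least 1.93-fold higher, log2 difference 0.95, SE 0.21, adjusted p = 0.0399). On the lower side, Inmt, an N-methyltransferase of amines, had 1031, 1122, 1625 and 1949.7 at 6 and 601, 192, 315 and 405 at 18 months, each 18-month array below each 6-month array (3.97-fold lower, log2 difference -1.99, SE 0.40, adjusted p = 0.0218). Dhrs7l1, a dehydrogenase with male-dominant expression, had 2789, 2531, 2014 and 2178 at 6 and 1481, 452, 484 and 1560.5 at 18 months. Its 18-month arrays split into a low pair, replicates 2 and 3, and a higher pair, replicates 1 and 4 (2.8-fold lower, log2 difference -1.48, SE 0.34, adjusted p = 0.0487). Akr1c3, an aldo-keto reductase of steroids, had 235, 367, 258 and 212 at 6 and 165, 124, 76.6 and 179 at 18 months (2.02-fold lower, log2 difference -1.02, SE 0.23, adjusted p = 0.0462).

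None of 5 UDP-glucuronosyltransferases, 10 sulfotransferases, 20 glutathione transferases, 11 esterases and epoxide hydrolases or 22 transporters passed in limma's test. The share of all tested genes that passed was 1.08%, and no call in lists of these sizes is near it. Over all 9206 genes an unadjusted p under 0.05 was reached by 656 higher and 430 lower genes. Transporters had 18 negative signs of 22 and a median of -0.14, with the nucleoside carrier Slc29a1 nearest to a call (239 ± 13.5 and 166 ± 18.5, SD, n = 4; adjusted p = 0.0975). Cyp2e1, which oxidises ethanol and solvents, was 6682 ± 569 and 6790.2 ± 571 (SD, n = 4; adjusted p = 0.966), and Cyp1a2, of aromatic amine metabolism, 2685 ± 678 and 2129.6 ± 55.9 (adjusted p = 0.536). The nuclear receptors Nr1i2 and Nr1i3, which induce such enzymes, had adjusted p-values of 0.846 and 0.888, and the electron donor Por 0.716. Of the 3 higher calls 1 was made with 18-month replicate 3 left out and 0 with the arrays of GAPDH ratio above 2.5 left out. No lower call was made with replicate 2 or 3 of either age left out, or with those arrays left out. A single lower call was made with 6-month replicate 1 or 4 left out, in a fit of the 2 ages alone, under quantile normalization, with a floor of 16, with dim genes kept, and where probe sets of a gene were averaged.

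Among the lower genes, Cela1 had the largest difference. This elastase, best known from pancreatic acinar cells, had 238, 105, 154 and 213 at 6 months and 35.3, 8.2, 6.86 and 35.3 at 18 months, where replicates 2 and 3 lay under the floor and replicates 1 and 4 just above it (at least 5.04-fold lower, log2 difference -2.33, SE 0.31, adjusted p = 0.00194 with limma). Of 8 acinar markers on the array, Cpa1, Prss1, Ctrc, Pnlip and Clps were never above the floor on the 6-month and 18-month arrays. The 3 tested, Cela1 among them, had a median log2 difference of -0.06, and that of Cpb1 was 0.03. Poteml2 had 397, 351, 176 and 331 at 6 and 137, 81.3, 72.7 and 119 at 18 months (3.03-fold lower, log2 difference -1.60, SE 0.34, adjusted p = 0.0301). Abcc9, the sulfonylurea receptor subunit of a potassium channel, had 185, 136, 164 and 125 at 6 and 89.6, 55.3, 63.3 and 95.8 at 18 months, with the groups apart (2.04-fold lower, log2 difference -1.03, SE 0.19, adjusted p = 0.0143). Paqr9, a membrane protein of the progestin and adiponectin receptor family, had 281, 372, 394 and 235 at 6 and 142, 100.2, 133 and 168 at 18 months (2.35-fold lower, log2 difference -1.23, SE 0.25, adjusted p = 0.0218). The neutral amino acid transporter Slc1a4 fell from 80.2 ± 27.6 to 39.5 ± 5.54 (SD, n = 4), and 6-month replicate 4 lay just above the older group (adjusted p = 0.0314). Without 18-month replicate 3 or 6-month replicate 1 the calls of Poteml2, Abcc9, Paqr9 and Slc1a4 were lost, and Cela1 passed with each array left out in turn. The call of Cela1 was lost with a floor 4 times as high and with all arrays of GAPDH ratio above 2.5 left out.

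In amino acid breakdown 2 of 46 genes passed, both lower, where 0.163% of all tested genes were lower. In this list 41 signs were negative and the median log2 difference was -0.21. Hal, the first enzyme of histidine breakdown, had 738, 999, 756 and 976 at 6 months and 471, 253, 484 and 516 at 18 months, with 18-month replicate 2 far below the other 3 (2.07-fold lower, log2 difference -1.05, SE 0.21, adjusted p = 0.0222 with limma). Kynu, which cleaves kynurenine, a breakdown product of tryptophan, had 2281, 2392, 2684 and 2533 at 6 and 1848, 1445, 1358 and 1983 at 18 months, also apart (1.51-fold lower, log2 difference -0.59, SE 0.13, adjusted p = 0.0422). Neither passed without 18-month replicate 2 or 3, in a fit of the 2 ages alone, with the arrays of GAPDH ratio above 2.5 left out, or with any 1 of the 6-month arrays left out. The other lower genes differed by less: Lgalsl, related to the galectins, had 239.6, 203, 200.2 and 207 at 6 and 133, 172, 115 and 119.9 at 18 months, where 18-month replicate 2 was highest (1.59-fold lower, log2 difference -0.67, SE 0.14, adjusted p = 0.0254), and a second probe set of it gave 0.01. Rnf8, a ubiquitin ligase of the DNA damage response, had 320.2, 285, 284 and 252 at 6 and 187, 208, 206 and 192 at 18 months (1.44-fold lower, log2 difference -0.52, SE 0.10, adjusted p = 0.0172). The phospholipid enzyme Selenoi (1.45-fold lower, adjusted p = 0.0493), the tethering factor Vps53 (1.31-fold, adjusted p = 0.0495) and the transcriptional repressor Ripply1 (at least 1.51-fold, adjusted p = 0.0175) made up the rest. None of these last 5 passed without 18-month replicate 3 or 6-month replicate 2.

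Several lists that bear on ageing had no member past the threshold in limma's test. These were 25 genes of p53 targets and growth arrest (median log2 difference -0.00), 14 of the cell cycle (-0.01), 23 of the antioxidant response (0.13), 22 of the unfolded protein response (-0.01) and 80 of the mitochondrial respiratory chain (-0.06, 58 negative). As 1.08% of all tested genes passed, lists of these sizes without a call are near the share over all genes. Cdkn1a, a p53 target that arrests the cell cycle, had 206 ± 32.3 and 157 ± 47.3 (SD, n = 4; adjusted p = 0.607), and regucalcin (Rgn), known to fall in ageing rat liver, 4269.5 ± 229 and 4256 ± 244 (adjusted p = 0.992). Fatty acid synthesis had 17 of 21 negative signs, a median of -0.29 and no call. Clock genes had no call among 15, with 9 at an unadjusted p under 0.05, where 1086 of all 9206 tested genes reached it. Dbp, an output gene of the clock, came nearest with 19, 75.7, 64.4 and 28.2 at 6 and 88.3, 66.9, 151 and 117 at 18 months (log2 difference 1.10, adjusted p = 0.0574), then Npas2 with -0.89 (adjusted p = 0.0602). Whether the groups were killed at the same hour is not given in the sources used here, and its part was not tested.

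The levels at 11 and 24 months are given beside these differences. Measured from the 6-month mean, the median log2 level of the 84 higher genes was 0.15, 0.49, 0.18 and 0.33 on the 11-month arrays, 0.97, 0.99, 1.08 and 0.75 on the 18-month arrays, and 0.94, 0.73, 1.08 and 1.07 on the 24-month arrays. The genes were chosen on the 18-month and 6-month arrays, so the levels of those ages are fixed by that choice. The medians at 11 and 24 months are measured from the same 6-month mean, so they carry part of that choice too. For the 15 lower genes the medians were -0.41 to -0.06 at 11 months and -1.01 to -0.62 at 24 months. Comparisons of 18 with 11 months and of 24 with 18 months share the 18-month arrays with the main one, and over all genes they gave 27 (0.293%) and 162 (1.76%) calls. Lbp was 555 ± 120.3 at 11 and 1282 ± 398 at 24 months (SD, n = 4), and its step from 11 to 18 months passed (log2 difference 1.69, adjusted p = 0.0225) while that from 18 to 24 months did not (-0.50, adjusted p = 0.534). RT1-Da was 508 ± 180.1 and 1040.3 ± 522, with a wide spread at 24 months and neither step passing (adjusted p = 0.105 and 0.812).

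Some genes went further in the same direction by 24 months in limma's test. Inmt dropped to 108 ± 51.7 (SD, n = 4; log2 difference from 18 months -1.85, adjusted p = 0.0257), Dhrs7l1 to 173 ± 23.4 (-2.30, adjusted p = 0.00131) and Akr1c3 to 19.6 ± 11.7 (-2.01, adjusted p = 0.000101). Akr1c3 lay under the floor on all 24-month arrays, so its difference is at least that size and its floored values have no spread there. Cyp26a1 rose further, to 149 ± 34 (1.20, adjusted p = 0.00568). Others moved back. Hal was 841 ± 133 at 24 months (log2 difference from 18 months 1.00, adjusted p = 0.023), Lgalsl 305 ± 50.7 (1.18, adjusted p = 0.000125) and Rnf8 264 ± 17.9 (0.41, adjusted p = 0.0425). On the higher side Tnfrsf12a was down to 34.6 ± 6.6 (-0.47, adjusted p = 0.0221) and Cd276, a faint immune checkpoint ligand, to 23.6 ± 10.6 (-0.52, adjusted p = 0.0247). For these 5 genes the comparisons with 6 and with 24 months both passed, and both rest on the same 4 arrays of 18 months.

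**Figure D4:**
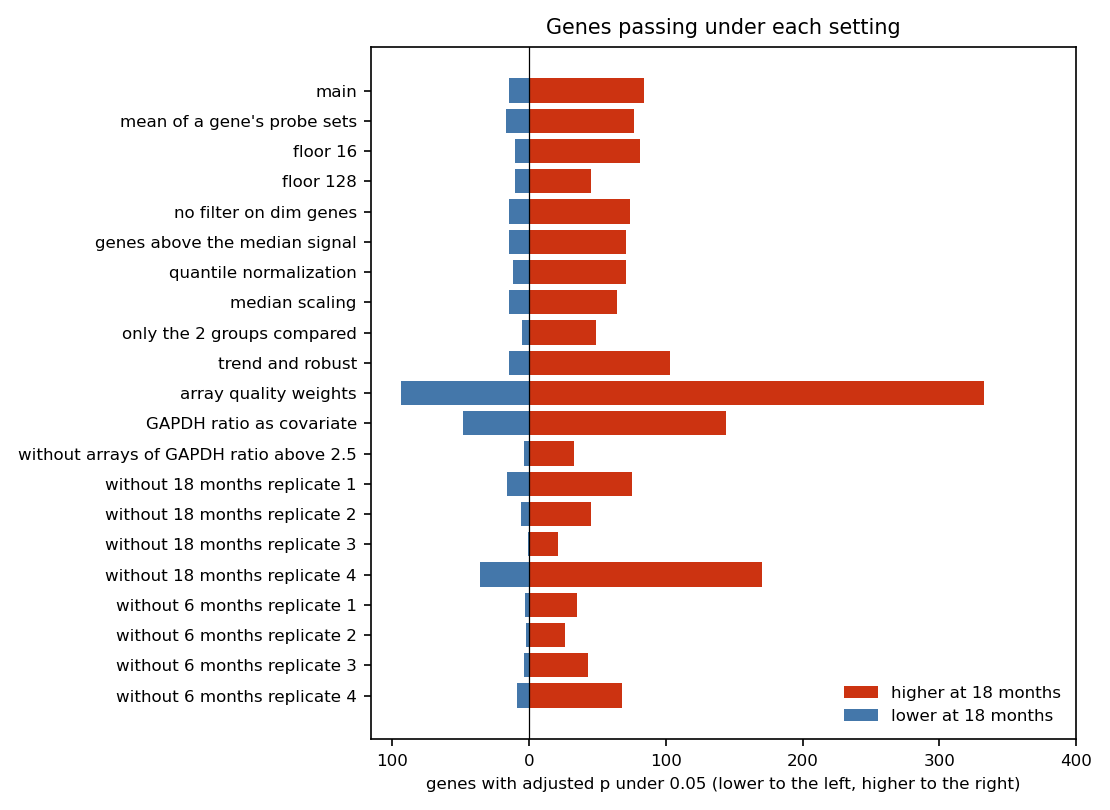
Number of genes with an adjusted p under 0.05 (limma) at 18 against 6 months under the reported setting (main) and 20 alternatives, higher to the right and lower to the left. The higher count runs from 21 without 18-month replicate 3 to 333 with array quality weights, around the reported 84.

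The arrays were alike in overall signal and differed in RNA quality. Median signals ran from 44.9 to 47.1 over the F344 arrays, and from 59.5% to 61.1% of signals exceeded the floor. The GAPDH ratio, that of a 3′ over a 5′ probe set, goes up as RNA breaks down. It was 4.35, 1.66, 2.96 and 1.93 at 6 months and 1.88, 1.31, 1.65 and 5.31 at 18 months (exact permutation p of the means = 0.771, two-sided, 4 against 4, where the smallest possible is 0.0286). The arrays with a ratio above 2.5 were 6-month replicates 1 and 3, 18-month replicate 4 and 2 of 11 months. Replicate 4 of 18 months was the lowest of its group in 50 of the 84 higher genes and the highest in 10 of the 15 lower ones. With all arrays of ratio above 2.5 left out 37 passed, and with the ratio as a covariate 192. The part of RNA quality in the differences was not tested beyond these values. Of the 84 higher genes 8 passed under every alternative that could test them: Rgs10, Ifitm3, Vim, Cxcl16, Ubd, Gpnmb, S100a11 and Lbp. None of the 15 lower genes did, and none of the 99 changed sign. Array quality weights were largest for 18-month replicate 3 among the F344 arrays (2.57), and 18-month replicate 4 had 0.376. At equal weights 22 genes passed with that replicate 3 left out. With array quality weights 427 of all 9206 genes passed. Among them were 9 of 10 class II, 16 of 26 macrophage and 14 of 37 annexin, galectin and cytoskeleton members. Of interferon-responsive and of collagen and stellate cell members, 8 of 33 and 7 of 29 passed.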

How the data were processed

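Expression was measured in rat liver on Affymetrix Rat 230 2.0 arrays, labelled with biotin from RNA extracted with TriReagent and cleaned on RNeasy columns, per the labels. What the authors deposited is 1 linear intensity per probe set and array, and the submitters' processing notes name MAS5 and RMA with no version, role or order. Of 24946 probe sets 23324 have F344 values, 16556 of these carry a single gene symbol, 380 several and 6337 none, and 51 are controls. Symbols come from the platform's annotation, brought up to date through Entrez identifiers (11904 of 11943 genes matched RefSeq's GRCr8 table).

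A gene was represented by its probe set of highest mean log2 signal over the F344 arrays and was tested if above the floor of 32 on at least 4 of 16 arrays. Differences of group means were fitted on log2 values with limma 3.58.1 in R 4.3.3, with moderated variances. Folds come from floored values and are lower bounds, written as at least that size, where any array of the lower group was floored. Each array is a separate animal, and no pair of arrays correlated above 0.990. The fit was tested on simulated data. The number of arrays limits the precision.

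The comparison, the gene lists and the rule for named genes were chosen with earlier results of these data known. The rule took all lower genes and the 25 most changed higher genes whose groups did not overlap, up to 4 passing members of each list by p, up to 2 of smallest p where none passed, and fixed enzymes and ageing genes. Others (among them RT1-Ba, RT1-Db1, Ifi30, Ciita, S100a8, Gas6, Sirpa, Cd300a, Vsir, Itgb2, Lgmn, Ten1 and Slfn5) were named after their values were seen. Alternatives were averaging the probe sets of a gene, a floor of 16 and one 4 times that used, no filter, genes above the median signal, quantile or median scaling, the compared ages alone, a variance trend with robust moderation, array weights, GAPDH ratio as covariate or limit, and each array left out. The fixed gene Ahr was not above the floor on enough arrays to be tested. Promoter letters were searched in RefSeq sequences, which matched 68 of the higher and 13 of the lower genes.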

Additional observations from a re-analysis of the deposited data

Results flagged for a closer look

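Among 218 groups of 4 arrays examined (6 and 18 months, for each gene named and each measure of the arrays), 19 held an array whose gap to its nearest neighbour was a larger share of the group's range than Dixon's 95% critical value. Chance alone flags about 1 in 20 groups, and gene values are floored log2 signals. Replicate 4 of 18 months stood apart in 5 genes and both RNA measures. It was lowest for Anxa5 (gap 0.889 of the range), Bcl2a1 (0.858), Dcn (0.897), Lgals3bp (0.870) and Msln (0.927), and highest for the 3′ to 5′ ratios of GAPDH (5.31, gap 0.857) and actin (18.8, gap 0.919). The part of its RNA quality in these gene values was not tested. Of the other 18-month arrays, replicate 3 was lowest for Cyp3a2 (0.939), replicate 2 for Hal (0.872) and replicate 1 for Rgs10 (0.855). At 6 months replicate 1 was lowest for RT1-DMa (0.838) and highest for RT1-DMb (0.876), replicate 2 was lowest for Slfn5 (0.913), and replicate 4 was highest for RT1-Ba (0.859). In Cd276, Cyp26a1 and Prom1 (replicate 4), Tspan8 (replicate 1) and Msln (replicate 3) the 6-month array named was the only one of its group above the floor, so the gap was 1.00 of the range.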

How the results depend on the processing

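Against 99 genes passing (84 higher, 15 lower), 55 passed with a floor 4 times as high (45 higher), 54 in a fit of the 2 ages alone (49 higher, 5 lower), 427 with array quality weights (333 and 94), 192 with the GAPDH ratio as a covariate (144 and 48) and 37 without arrays of ratio above 2.5 (33 and 4). Leaving out each array in turn gave 22 to 206 genes, 21 to 170 higher and 1 to 36 lower. The lowest values came with 18-month replicate 3 left out and the highest with its replicate 4 left out. The other alternatives gave totals within 1.5 times the main one. The cause was not tested, except that the higher floor leaves fewer genes tested. Among genes that did not pass, log2 differences near 0 changed sign. With 18-month replicate 2 or 4 left out, Cyp2c12 turned to 0.052 and 0.059, within a range of -0.88 to 0.059 over the arrays left out, and with array weights to 0.51. Cyp3a2 was -0.057 with array weights and -0.058 to 0.15 over the arrays left out. Cyp2e1 was -0.0011 under quantile normalization, -0.00085 with the GAPDH covariate and -0.039 to 0.078 over the arrays left out. Nr1i2 was 0.032 with array weights and -0.30 to 0.0097 over the arrays left out. Rgn was 0.011 under quantile normalization, 0.013 with the GAPDH covariate and -0.036 to 0.027 over the arrays left out. No paired analysis was possible because the labels give no replicate numbers shared between the ages. Signals near the floor limit what can be seen of faint genes.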
